A study of Mus musculus with 4 samples.

Results

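The 10 genes described here encode chaperones of the endoplasmic reticulum (ER) and transcription factors of the ER stress response, in CD8+ T cells recovered from mouse melanomas. They were taken by symbol as known genes of this response, with earlier results of these data known, from 15981 genes listed in at least 1 of 4 tables. Of these, 6 encode folding proteins, *Hspa5*, *Hsp90b1*, *Calr*, *Canx*, *Pdia3* and *Pdia4*, and the other 4, *Xbp1*, *Atf4*, *Ddit3* and *Atf3*, encode transcription factors. The question of the comparison was how the transcriptomes of Tc9 and Tc1 cells differ inside a tumor.

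Both groups were CD8+ T cells with the transgenic Pmel-1 receptor, which recognizes a melanoma antigen, carried the Thy1.1 marker and were sorted from s.c. B16 melanomas of Thy1.2+ C57BL/6 mice. Tc1 cells had been polarized with rhIL-2, and Tc9 cells with IL-4, TGF-β and an antibody against IFN-γ, for 5 days of culture in all that ended in standard medium with rhIL-2 for both. The cells were injected i.v. into mice with 10-day tumors, and all hosts had received cyclophosphamide, peptide-pulsed dendritic cells and rhIL-2. Sorting took place 14 days after transfer, and RNA of several mice was pooled into 2 libraries per group, so the spread between libraries is that between pools and may be partly technical. No age or sex of the mice is given in the sources used here.

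The tables used here list genes in the character order of their numeric identifiers and reach different points of that order. *Calr*, *Canx*, *Pdia4*, *Atf4* and *Atf3* were covered by all 4 libraries, *Hspa5*, *Pdia3* and *Ddit3* by Tc1 replicate 2 and both Tc9 libraries, and *Hsp90b1* and *Xbp1* by the replicate 2 libraries only. Library depths were between 30822953 and 31927162 counts, so that 3 counts correspond to 0.0940 to 0.0973 when scaled to a common library total by depth alone. The CPM values given for the members are scaled by depth and edgeR's TMM factor, and every member had at least 889 counts. In the replicate 2 libraries all 8 T cell markers were present, from 66.9 to 628 FPKM (fragments per kilobase, scaled by library size) in Tc1 and from 107 to 531 FPKM in Tc9. The 3 melanoma markers covered were between 0.03 and 0.86 FPKM. Of 10 myeloid markers covered, 6 in Tc1 and 7 in Tc9 lay at or under 3 counts, with *Lyz2* and *C1qa* at 0 in both. The highest was *Cd68* (6.19 FPKM in Tc1 and 12.7 in Tc9). The summed FPKM of the 4 B cell markers was 4.68 in Tc1 and 14.2 in Tc9. Of the 2 markers of CD4 T cells, *Cd4* was at 0.48 and 0.64 FPKM and *Foxp3* at 0.19 and 13.65 FPKM. Of 4 stromal and endothelial markers covered, 3 and 2 lay at or under 3 counts, with summed FPKM of 4.24 and 4.38. Of 6 markers of plasma cells, which rely on XBP1, 4 were covered, with summed FPKM of 125 in Tc1 and 301 in Tc9. Most of that sum was *Irf4*, which activated T cells also express, at 123 and 300.1 FPKM. *Jchain* was at 3 and 2 counts, *Sdc1* at 23 and 23, and *Prdm1* at 359 and 108. The part of all these markers in the results was not tested.

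Proteins that enter the secretory pathway fold in the ER. There BiP (*Hspa5*) and GRP94 (*Hsp90b1*) bind unfolded chains, calnexin (*Canx*) and calreticulin (*Calr*) hold glycoproteins by their sugars, and the isomerases of the *Pdia* family form and rearrange disulfide bonds. When unfolded protein accumulates, the sensors IRE1, PERK and ATF6 start the unfolded protein response: IRE1 splices *Xbp1* mRNA into the form that encodes an active factor, PERK slows translation through eIF2α and thereby raises translation of *Atf4*, and ATF6 is cleaved into a factor that binds the ER stress response element. ATF4 induces amino acid synthesis genes and, under stronger stress, *Ddit3*, which encodes CHOP, and *Atf3*. Much of this control acts on splicing, translation or cleavage, which gene-level counts do not show.

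The ER stress response element (ERSE), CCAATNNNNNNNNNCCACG, was searched on both strands of the RefSeq promoter windows (GRCm38.p6, 250 bases before to 50 bases after each annotated start) because it is the sequence through which ATF6 and XBP1 are known to act. All 10 members had a window. The motif was found exactly in 4 of the 6 folding genes, *Hspa5*, *Hsp90b1*, *Calr* and *Canx*, and in none of the 4 transcription factor genes. Of all 32851 windows, 39 held it (0.119%), belonging to 37 of 27025 genes. The members were chosen as known genes of the ER stress response, so the presence of its element in them is no independent result. The sequences below are shown because these 4 genes share the element. They are printed 5′ to 3′ on the strand of the gene, all lie upstream of the annotated start, and capitals mark the fixed letters of the element, which reads CGTGG, 9 bases and ATTGG where it lies on the opposite strand.
Hspa5, chr2:34772013-34772055, + strand: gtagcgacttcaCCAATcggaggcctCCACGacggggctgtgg
Hsp90b1, chr10:86705521-86705668, - strand: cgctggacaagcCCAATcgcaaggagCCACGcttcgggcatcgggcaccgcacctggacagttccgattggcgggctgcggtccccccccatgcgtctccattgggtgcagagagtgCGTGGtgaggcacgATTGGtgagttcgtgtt
Calr, chr8:84847063-84847105, - strand: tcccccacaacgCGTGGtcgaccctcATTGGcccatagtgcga
Canx, chr11:50325788-50325830, - strand: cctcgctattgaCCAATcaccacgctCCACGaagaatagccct

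*Hsp90b1* held 2 exact copies, beginning at positions -212 and -107 relative to the annotated start, and the other 3 genes held 1 each, beginning at -65 (*Hspa5*), -162 (*Calr*) and -145 (*Canx*). *Pdia3*, *Pdia4* and *Ddit3* came within 1 letter of the 10 fixed ones in the bases before the start, as did 1.32% of all windows. Their nearest matches are shown with only the matching letters in capitals.
Pdia3, chr2:121413861-121413901, + strand: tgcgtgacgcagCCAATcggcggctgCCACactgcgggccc
Pdia4, chr6:47813590-47813632, - strand: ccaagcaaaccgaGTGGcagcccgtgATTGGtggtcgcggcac
Ddit3, chr10:127290690-127290732, + strand: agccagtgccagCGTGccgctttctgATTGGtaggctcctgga

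For *Atf4*, *Xbp1* and *Atf3* the nearest match lacked 2, 3 and 3 letters. The second form of the element (ATTGG, any 1 base, then CCACG) and the cyclic AMP response element TGACGTCA were in no member's window (0.0365% and 1.79% of all windows). The letters TTGCATCA, the composite element that ATF4 binds with C/EBP proteins, stood in the *Atf3* window, beginning at position -110, and in 0.895% of all windows. It is shown with the element in capitals.
Atf3, chr1:191183420-191183459, - strand: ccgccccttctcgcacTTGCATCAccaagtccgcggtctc
A match describes letters in these windows and does not show that a factor binds there.

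Of the folding genes, 5 lay above 96.0% or more of the genes each table lists, by FPKM, which is scaled by gene length, while *Pdia4* lay above 82.5% to 86.1%. *Calr* was the highest of the members that each library covers, with 493 and 492 FPKM in the Tc1 libraries and 386.7 and 399.9 FPKM in Tc9 replicates 1 and 2. It was above 98.8% to 99.5% of the genes each table lists. In Tc1 replicate 2 the order went on with *Hspa5* (359 FPKM), *Hsp90b1* (316 FPKM), *Atf4* (255 FPKM), *Pdia3* (253 FPKM), *Canx* (168 FPKM), *Xbp1* (92.5 FPKM), *Pdia4* (45.9 FPKM), *Atf3* (39.0 FPKM) and *Ddit3* (27.1 FPKM). *Atf4* and *Pdia3* could not be separated in that order. In Tc9 replicate 2 *Canx* (133 FPKM) and *Xbp1* (130.2 FPKM) were side by side. *Pdia4* stood above *Atf3* in both Tc1 libraries (44.7 and 45.9 against 36.9 and 39.0 FPKM), and the order was the reverse in Tc9 replicate 2 (31.3 against 43.0 FPKM) but not in Tc9 replicate 1 (40.6 against 37.7 FPKM). Every member's expected count was a whole number in every library, so none of these reads had been split with another gene by a fraction.

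Of the 5 members covered by all libraries, 2 fell in Tc9 cells, *Calr* and *Atf4*, and none rose, where 16.7% of the 1284 genes tested were called lower, 17.4% higher and 34.1% in either direction by the same rule (two-sided quasi-likelihood test of edgeR, with p adjusted after Benjamini and Hochberg and called under 0.05). Their median log2 fold change was -0.36, beside 0.0014 over all genes tested. The groups did not overlap, with Tc9 lower, in 3 of the 5, beside 35.7% of all genes tested (34.7% with Tc9 higher). Taken alone, a gene with 2 libraries against 2 could reach no p below 0.333 by exact permutation, so these calls draw on the spread estimated across all genes.

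*Calr*, the lectin chaperone that also buffers ER calcium, was counted 28306 and 28310 times in the Tc1 replicates, against 21687 and 22233 times in Tc9 replicates 1 and 2. The Tc1 libraries were almost equal, and both Tc9 libraries were lower. Its mean was 899.9 ± 2.5 CPM in Tc1 and 699.8 ± 12.5 CPM in Tc9 (SD, n = 2 each), which is 77.8% of the Tc1 mean. The log2 fold change was -0.36 (SE 0.09, adjusted p = 0.0157 in the edgeR quasi-likelihood test).

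*Canx*, the membrane-bound partner of calreticulin, reached 21376 and 22245 counts for Tc1 against 21766 and 17028 for Tc9. Tc9 replicate 1 lay between the Tc1 libraries and only Tc9 replicate 2 was lower, so the groups overlapped. The log2 fold change of -0.17 (SE 0.13) did not pass the threshold (adjusted p = 0.331 in the same edgeR test), and it rested on which Tc9 library was used. Without Tc9 replicate 1 it was -0.35, and without Tc9 replicate 2 it was 0.00027. A fit with 1 Tc9 library takes its spread from the Tc1 pair alone, so no call is drawn from it. *Pdia4*, an isomerase of the ER lumen, reached 3517 and 3622 counts for Tc1 against 3119 and 2382 for Tc9. Both Tc9 libraries were below both Tc1 libraries, but they differed from each other by more (log2 ratio -0.39) than Tc9 replicate 1 did from Tc1. Its log2 fold change of -0.37 (SE 0.14) had an adjusted p of 0.0638 in the same edgeR test. It passed in DESeq2 (adjusted p = 0.0482) and in edgeR with the replicate number as a block (adjusted p = 0.0422). The log2 fold change was -0.58 without Tc9 replicate 1 and -0.19 without Tc9 replicate 2.

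*Hspa5* and *Pdia3*, beyond the reach of Tc1 replicate 1, had lower counts in both Tc9 libraries. *Hspa5*, which encodes BiP, the chaperone that also holds the stress sensors inactive, was counted 27531 times in Tc1 replicate 2, against 19336 and 18494 times in the Tc9 replicates. The Tc9 libraries were close to each other (log2 ratio -0.06), and their mean of 602.8 ± 18.8 CPM (SD, n = 2) was 68.7% of the 877 CPM of the single Tc1 library. *Pdia3*, the isomerase that works with both lectins on glycoproteins, was counted 20357 times in Tc1 replicate 2, against 15921 and 13229 times in Tc9. Its Tc9 mean was 464 ± 60.6 CPM (SD, n = 2), 71.6% of the Tc1 value of 648 CPM.

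The edgeR test over these 3 libraries took the lone Tc1 library to vary like the Tc9 pair. The log2 fold change was -0.54 (SE 0.19) for *Hspa5* and -0.48 (SE 0.22) for *Pdia3*, and neither passed (adjusted p = 0.149 and 0.222 in the edgeR quasi-likelihood test). None of the 3 members tested there passed, where 3.20% of 2622 genes were called lower, 7.51% higher and 10.7% in either direction. In 3 of these 3 members both Tc9 libraries were below the Tc1 library, as in 37.8% of the genes tested (44.1% the other way). For *Ddit3* the margin to Tc9 replicate 1 was 32.9 against 32.7 CPM. A miss in this test carries little information, since it has 1 residual degree of freedom. In simulated counts for these libraries it recovered a median of 0% of doubled or halved genes (range 0% to 88.4% over 20 simulations). The test with 4 libraries recovered 94.9% in such counts. The simulation gave every gene in both groups the same spread, unlike the real libraries, so these shares do not measure recovery in the real data.

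*Hsp90b1*, which encodes GRP94, the ER chaperone that integrins and Toll-like receptors need to fold, was counted 26458 times in Tc1 replicate 2 against 17656 times in Tc9 replicate 2. Its log2 ratio was -0.58 (95% Wilson interval -0.61 to -0.56, counting error only), or 66.8% of the Tc1 value. These 2 libraries give no test of the conditions. For scale, 95% of genes with at least 5000 counts differed by less than 0.49 on the log2 scale between the 2 Tc9 libraries, and by less than 0.13 between the 2 Tc1 libraries. Of 7 members with at least 5000 counts in both replicate 2 libraries, *Hsp90b1*, *Hspa5* (-0.57) and *Pdia3* (-0.62) were beyond 0.49, while *Calr* (-0.35), *Canx* (-0.38), *Atf4* (-0.41) and *Xbp1* (0.45) were within it. Of all 689 genes with such counts, 14.8% were beyond it on the lower side and 9.58% on the higher side. Over all genes tested, low counts included, the Tc9 libraries differed by up to 0.73 at the same percentile, which no member exceeded.

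In the replicate 2 libraries, the only ones that cover all 10 members, all 6 folding genes were lower in Tc9, with log2 ratios from -0.62 (*Pdia3*) to -0.35 (*Calr*) and a median of -0.58, where 47.6% of 6225 genes were lower, 52.4% were higher and the median was 0.03. Tc9 replicate 2 was also the lower of the Tc9 libraries for *Canx*, *Pdia3* and *Pdia4* (log2 ratios to Tc9 replicate 1 of -0.35, -0.27 and -0.39), but not for *Calr* (0.04). The ratios of this pair are therefore larger for those 3 than a mean of both Tc9 libraries gives.

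**Figure D1:**
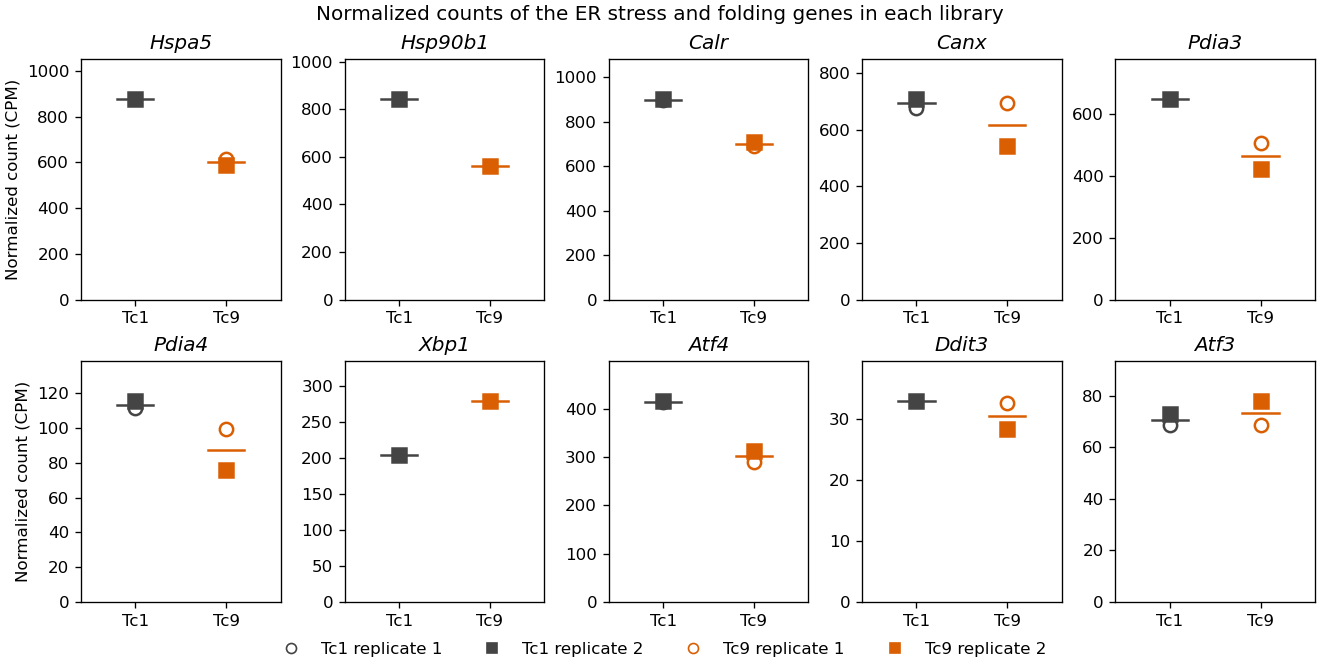
Normalized counts (CPM, y axes from 0, 1 panel per gene) of the 10 genes in each library, gray for Tc1 and orange for Tc9, open circles for replicate 1 and filled squares for replicate 2, with a line at the group mean; a missing point is a library not covering the gene. For *Calr* and *Atf4* both Tc9 libraries lie below both Tc1 libraries with little spread, whereas Tc9 replicate 1 lies among the Tc1 libraries for *Canx*.

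The transcription factors differed in sign: *Atf4* fell, *Xbp1* was higher in the Tc9 library that covers it, and *Ddit3* and *Atf3* differed by less than the spread between the Tc9 libraries. *Atf4*, the factor of the integrated stress response, reached 13067 and 13040 counts for Tc1 against 9100 and 9824 for Tc9 replicates 1 and 2. Its mean was 415 ± 0.52 CPM in Tc1 and 301.5 ± 16.4 CPM in Tc9 (SD, n = 2 each), 72.7% of the Tc1 mean. The log2 fold change of -0.46 (SE 0.10) was the largest among the 5 members tested over all libraries (adjusted p = 0.00753 in the edgeR quasi-likelihood test). The calls of *Atf4* and *Calr* were both lost when either Tc1 library was left out, with log2 fold changes from -0.46 to -0.36 in these fits. Without Tc9 replicate 1 or 2 the log2 fold change was -0.41 or -0.52 for *Atf4* and -0.34 or -0.38 for *Calr*. Those fits take their spread from the Tc1 pair alone, so they do not show whether the calls hold.

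*Xbp1*, whose product drives ER expansion in secretory cells, was counted 6389 times in Tc1 replicate 2 against 8730 times in Tc9 replicate 2, giving a log2 ratio of 0.45 (95% Wilson interval 0.40 to 0.50, counting error only). Its sign was opposite to that of the folding genes, but the ratio compares single libraries without a test. The ratio was within the 0.49 by which abundant genes differed between the Tc9 libraries, but *Xbp1* was at 0.50 when scaled by depth alone. Its deposited length, an average over 3 transcripts of which 1 is unnamed, was 2305 bases in Tc1 and 2315 in Tc9. The spliced and unspliced forms were not separated in these tables.

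*Atf3*, a repressor and activator induced by many stresses, reached 2165 and 2288 counts for Tc1 against 2159 and 2442 for Tc9. The groups overlapped, and the log2 fold change was 0.05 (SE 0.12, adjusted p = 0.762 in the edgeR quasi-likelihood test). This direction turned to -0.04 without Tc9 replicate 2.

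*Ddit3*, which encodes the death-promoting factor CHOP, was counted 1032 times in Tc1 replicate 2, against 1026 and 889 times in the Tc9 replicates. The counts of Tc1 replicate 2 and Tc9 replicate 1 were nearly equal, and the log2 fold change was -0.11 (SE 0.21, adjusted p = 0.783 in the 3-library edgeR test). Its FPKM differed more, 27.1 in Tc1 against 21.2 and 18.15 in Tc9. The gene length deposited beside it, by which FPKM is scaled, was 1337 bases in Tc1 replicate 2 and 1694 and 1728 bases in Tc9. This length is an average over 4 transcripts, 2 of them unnamed, weighted by their estimated use. The length was 0.36 higher in Tc9 on the log2 scale, while the 2 Tc9 libraries differed by 0.03. Among 915 genes with several transcripts and at least 500 counts in the 3 libraries, 2 had a larger shift (0.219%), and the median shift was 0.0031. On the log2(FPKM + 1) scale the difference of *Ddit3* was -0.45 (adjusted p = 0.249 in limma).

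**Figure D2:**
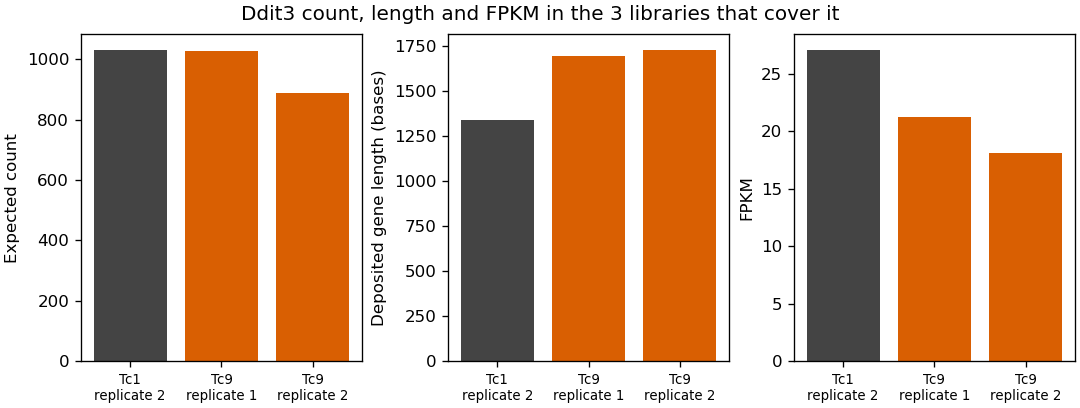
Expected count, deposited gene length in bases and FPKM of *Ddit3* (bars from 0) in the 3 libraries that cover it, gray for Tc1 and orange for Tc9. The counts of 1032, 1026 and 889 differ less than the FPKM values, and the lengths are 1337, 1694 and 1728 bases.

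**Figure D3:**
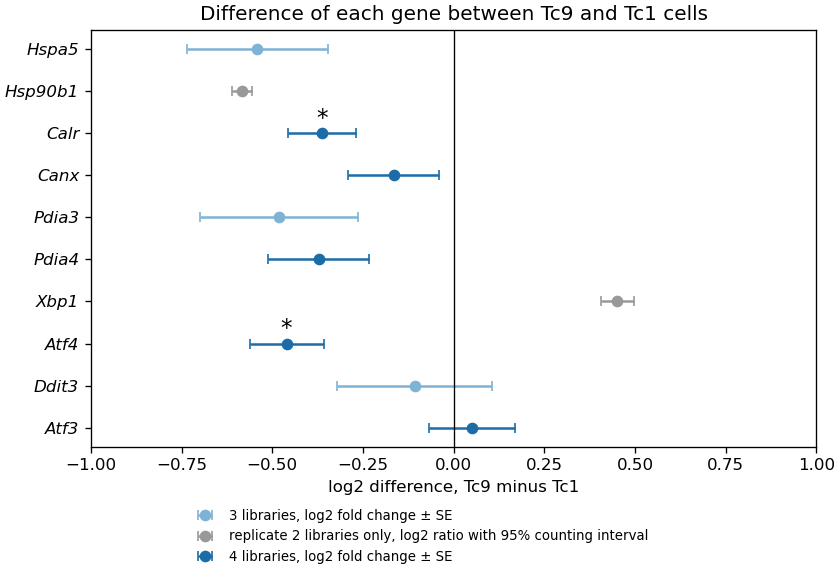
Difference of each gene on the log2 scale, Tc9 minus Tc1 (x axis), with SE for genes fitted over 4 libraries (dark blue) or 3 libraries (light blue) and with a 95% counting interval for the 2 genes of the replicate 2 libraries (gray), so bars of different color do not compare. Asterisks mark the 2 genes past an adjusted p of 0.05, *Calr* and *Atf4*, and *Xbp1* lies on the right at 0.45.

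The wider lists place these genes in their pathways, but not every list gene was covered by the replicate 2 libraries. Covered were 11 of 30 ER folding factors, 13 of 27 genes of ER-associated degradation and 8 of 24 of ER translocation. For the sensors it was 13 of 17, for ATF4 and CHOP targets 24 of 31, and for chaperones outside the ER 24 of 28. The counts that follow hold for covered genes only. Other folding factors of the ER did not pass the test in either direction: 0 of 5 tested over 4 libraries and 0 of 3 over 3 libraries, beside 34.1% and 10.7% of all genes called in either direction. With so few genes these counts, and those of 0 calls in the lists that follow, say little about a list. Their median log2 fold change over 4 libraries was -0.06, from -0.27 for *Hyou1*, the exchange factor of BiP, to 0.14 for *Txndc5*, a disulfide isomerase. *Hyou1* reached 7960 and 8340 counts for Tc1 against 6321 and 7161 for Tc9 (adjusted p = 0.0855 in the edgeR quasi-likelihood test), below Tc1 in both libraries. In the replicate 2 libraries 6 of 10 were lower and none lay beyond 0.73, the spread of the Tc9 pair over all genes. *P4hb*, which encodes a disulfide isomerase, was beyond the 0.49 for genes of at least 5000 counts, and higher in Tc9 (15600 and 23980 counts, log2 ratio 0.62), opposite to *Hsp90b1*, *Hspa5* and *Pdia3*. ER-associated degradation genes, which export and ubiquitinate misfolded proteins, gave 0 calls among 4 and among 1, with 7 of 13 lower in the replicate 2 libraries. Genes of the translocon and signal recognition particle gave 0 calls among 1 and among 1: *Ssr1*, a translocon-associated protein, had a log2 fold change of 0.05 over 4 libraries, and *Sec63*, a partner of the translocon, one of -0.24 over 3. Between the replicate 2 libraries, all 8 covered genes of the 24 in that list were lower in Tc9, beside 47.6% of all genes. Their median was -0.34 beside 0.03, and none lay beyond 0.73.

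In the list of sensors, eIF2α control and linked death effectors, 0 of 3 genes were called over 4 libraries and 0 of 4 over 3, beside the same 34.1% and 10.7% of all genes. Between the replicate 2 libraries 6 of 13 were higher and 7 lower, with a median of -0.15, and 2 were beyond 0.73, both lower, beside 8.996% of all genes on that side and 16.6% on the other. The 3 genes tested over 4 libraries were *Ppp1r15b*, a subunit of the eIF2α phosphatase, and *Bak1* and *Bax*, pore formers of the BCL2 family. No sensor was thus tested over all libraries. *Eif2ak3*, which encodes PERK, was counted 880 times in Tc1 replicate 2, against 1044 and 924 times in Tc9 (log2 fold change 0.16, SE 0.21, adjusted p = 0.663 in the 3-library edgeR test). *Eif2ak2*, which encodes the double-stranded RNA kinase PKR, was counted 4171 times in Tc1 replicate 2 against 2139 times in Tc9 replicate 2, giving a log2 ratio of -0.96.

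Targets of ATF4 and CHOP were mostly lower in Tc9. Over 4 libraries 5 of 8 tested genes fell and none rose, beside 16.7% lower and 17.4% higher among all genes tested, and their median log2 fold change was -0.55. *Psat1* and *Psph*, enzymes of serine synthesis, fell with log2 fold changes of -0.61 (SE 0.11, adjusted p = 0.0022) and -0.68 (SE 0.12, adjusted p = 0.00235) in the edgeR quasi-likelihood test. *Psat1* reached 15593 and 17141 counts for Tc1 against 11103 and 10257 for Tc9, without overlap. *Tars*, the threonyl-tRNA synthetase, fell by 0.58 on the log2 scale (adjusted p = 0.00663 in the same edgeR test). *Bcl2l11*, which encodes the pro-apoptotic protein BIM, fell most, by 0.98, from 614 and 588 counts to 331 and 278 (adjusted p = 0.000652 in the same edgeR test). The remaining one was *Shmt2*, a mitochondrial serine hydroxymethyltransferase (log2 fold change -0.52). None of 3 genes tested over 3 libraries was called. In the replicate 2 libraries 19 of 24 were lower, beside 47.6% of all genes, and the median was -0.44. There *Slc7a11*, the cystine transporter, went from 383 to 67 counts (log2 ratio -2.48), while *Vldlr*, a lipoprotein receptor, went from 196 to 463 (log2 ratio 1.23).

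Chaperones outside the ER were mostly lower in Tc9. All 7 tested over 4 libraries fell, beside 16.7% of all genes tested, all of them subunits of the CCT chaperonin, which folds actin and tubulin, with log2 fold changes from -0.61 to -0.36 and a median of -0.52. *Cct3* reached 13172 and 13851 counts for Tc1 against 9292 and 8779 for Tc9 (log2 fold change -0.58, SE 0.10, adjusted p = 0.00247 in the edgeR quasi-likelihood test). The log2 fold changes of *Cct6a*, *Cct5* and *Cct8* were -0.59, -0.46 and -0.61, the last the largest of the 7. Since the 7 subunits work as 1 complex, they are not 7 independent observations. Over 3 libraries 10 of 11 genes had a negative log2 fold change and 1 was called, *Hsp90aa1*, the inducible cytosolic HSP90 (log2 fold change -0.87, SE 0.20, adjusted p = 0.0481 in the 3-library edgeR test), beside 3.20% of all genes tested called lower. The call rests on 1 Tc1 library and was lost without the filter on low counts, where edgeR called 0 genes. *Hsp90aa1* was counted 63903 times in Tc1 replicate 2, against 38158 and 31913 times in Tc9; as these counts were not whole numbers before rounding, reads were shared with other transcripts. In the replicate 2 libraries 21 of 23 were lower (median -0.66), 11 of them beyond the spread of the Tc9 pair, as were 8.996% of all genes on the lower side and 16.6% on the higher side. Genes with at least 5000 counts leaned the other way, with 14.8% lower and 9.58% higher beyond their own spread of 0.49. *Stip1* and *Ahsa1*, cochaperones of HSP90, had log2 ratios of -0.92 and -0.78.

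**Figure D4:**
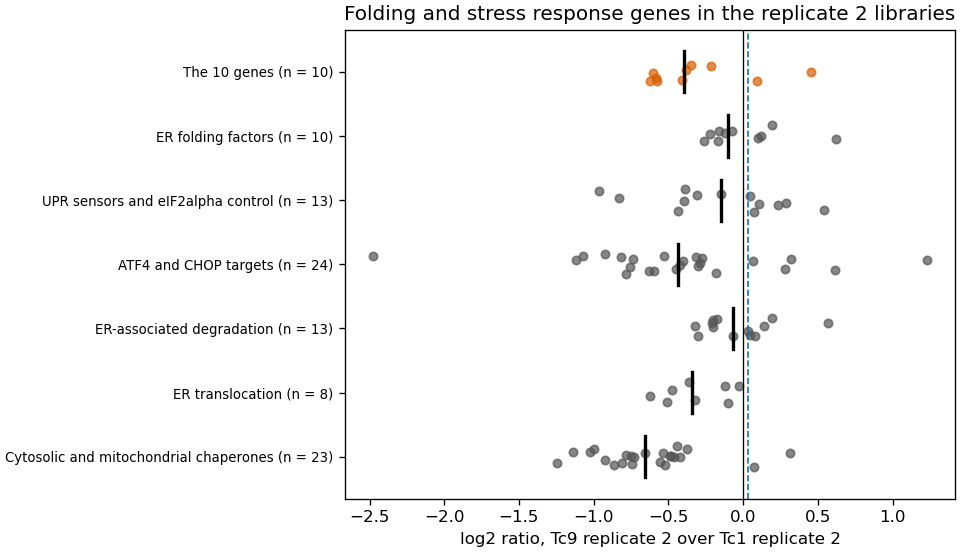
Log2 ratio of Tc9 replicate 2 to Tc1 replicate 2 (x axis) for each gene of each list (points, vertically jittered), with black bars at list medians and a dashed line at the median of all genes (0.03). The 10 genes (orange, median -0.40) and the targets of ATF4 and CHOP (median -0.44) lie mostly left of 0, and the cytosolic and mitochondrial chaperones (median -0.66) furthest, without replication of the Tc1 library.

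Of 6 genes with an exact ERSE in their promoter that were tested over 4 libraries, *Calr* fell and 1 rose, the acetyl-CoA carboxylase gene *Acacb* (log2 fold change 1.02, adjusted p = 0.0354 in edgeR). The 3 with a negative log2 fold change were the ER genes *Calr*, *Canx* and *Dnajc3*, and the 3 with a positive one were *Acacb*, *Pan2* and *Adcy3* (median of the 6, 0.11). *Hspa5* and *Hsp90b1*, which also hold the element, were not covered by all 4 libraries and had the values of -0.54 and -0.58 given above. Of the 1026 tested genes with a promoter window 16.6% fell and 17.0% rose. For the lists, only genes that the replicate 2 libraries cover were counted, so other list genes may hold the element. *Dnajc3*, a BiP cochaperone, was the 1 gene with the exact element among the 8 covered ER folding factors with a promoter window. None was found in the 7 to 20 windows of the covered genes of each other list. It reached 3180 and 3313 counts for Tc1 against 3468 and 2758 for Tc9 (log2 fold change -0.06, SE 0.13, adjusted p = 0.76 in the edgeR quasi-likelihood test). In bulk libraries of sorted cells, fewer cells with a transcript and less transcript per cell cannot be told apart.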

How the data were processed

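RNA-Seq tables of 2 Tc1 and 2 Tc9 libraries were used. For each gene the authors deposited an expected count (estimated reads per gene, not normalized), a length in bases, and an FPKM value scaled by that length and by library size. The submitters' processing notes name mm10, the same assembly as GRCm38. The aligner and counting program are not given in the sources used here. In 3 tables the last row lacked a line end and was left out. Genes missing from the stretch of identifiers that a table spans were set to 0 counts.

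The ranges held 1681 genes for 4 libraries, 3434 for 3 and 7828 for the replicate 2 libraries. Depth was set relative to the complete Tc9 replicate 2 table from count over FPKM, as the median over 296 to 1330 genes whose length was equal in both tables and whose counts were 500 or more. TMM factors (0.983 to 1.02, from the 4-library range) scaled all comparisons. Rounded counts were tested in edgeR 4.0.16 under R 4.3.3 by quasi-likelihood (filterByExpr, minimum count 10, Benjamini-Hochberg over all genes). SE is the log2 fold change over the square root of F. DESeq2 1.42.0 and limma 3.58.1 on log2(FPKM + 1) were alternatives. Replicate 2 ratios used a prior count of 2 and genes with at least 10 counts in 1 library. The fits were tested on simulated data with 200 changed genes and the same spread for every gene. Replicates differed by a chi-square of 4.46 (Tc1) and 40.5 (Tc9) per gene, beyond sampling noise. Intervals and floors cover counting error only.

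The members and lists were chosen with earlier results of these data known. Named genes are the 10 members and, in each list, up to 4 genes of smallest adjusted p among those past 0.05 in the 4-library fit, then likewise in the 3-library fit for genes beyond the former, and, where the replicate 2 tables alone cover a gene, up to 2 of largest ratio beyond the replicate spread with at least 100 counts. *Hyou1*, *Txndc5*, *Eif2ak3*, *Shmt2*, *Ppp1r15b*, *Bak1*, *Bax*, *P4hb*, *Ssr1*, *Sec63*, *Dnajc3*, *Acacb*, *Pan2* and *Adcy3*, and the genes in the closing observations, were picked once their values were known.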

Additional observations from a re-analysis of the deposited data

How the results depend on the processing

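Alternatives gave 195 values. In 152 the direction and the call, or the value within its error, were as in the report, while 32 moved beyond that, 5 gained a call, 4 lost one and, for *Canx* and *Atf3*, 2 turned sign. Among those counted as kept or moved, the medians of 2 lists with few genes tested over 4 libraries also turned sign. That of the sensors was 0.056 and 0.015 without Tc9 replicates 1 and 2, against -0.058. That of ER translocation, where 1 gene was tested, was -0.12 without Tc9 replicate 1, against 0.048. The cause was not tested. *Pdia4* passed with DESeq2 (log2 fold change -0.37) and with the replicate block (-0.39, adjusted p = 0.0422 in edgeR). The replicate numbers share no known mouse, same-numbered libraries' deviations correlated at -0.065, and the block gave 231 genes higher and 213 lower, and 406 calls were common to both fits. It changed no other member's call.

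With each library left out in turn, the lone library of a group was assumed to vary like the other group. The log2 fold change then ranged from -0.38 to -0.34 for *Calr*, -0.52 to -0.41 for *Atf4*, -0.58 to -0.19 for *Pdia4*, -0.35 to 0.00027 for *Canx* and -0.041 to 0.14 for *Atf3*. Without a Tc9 library the spread came from the Tc1 pair, which differed less. Calls gained there for *Canx* and *Pdia4* were not read as results. Genes higher ranged from 73 to 399 and lower from 48 to 407, fewest without a Tc1 library and most without a Tc9 library. List medians ranged from -0.18 to -0.024 (ER folding factors), -0.071 to 0.056 (sensors), -0.13 to -0.076 (ER-associated degradation), -0.12 to 0.19 (ER translocation), -0.60 to -0.50 (ATF4 and CHOP targets) and -0.62 to -0.43 (cytosolic and mitochondrial chaperones). Over 3 libraries with a Tc9 library left out, *Hspa5* ranged from -0.57 to -0.51, *Pdia3* from -0.62 to -0.35 and *Ddit3* from -0.21 to -0.01, without a test.

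Without a filter on low counts, 130 genes were higher and 110 lower over 4 libraries. Over 3 libraries there were then 0 higher and 0 lower in edgeR, with 598 at an unadjusted p under 0.05. DESeq2, run as a separate alternative, gave 208 higher and 117 lower. Over 3 libraries, depth alone gave 371 higher and 163 lower, and TMM factors of that range 328 and 211, against 197 and 84. With depth alone the median of ER folding factors was -0.019 and that of ER-associated degradation -0.10, and on the log2(FPKM + 1) scale the former was -0.025. *Hsp90b1* was -0.53 with depth alone, -0.61 with TMM factors of the replicate 2 range and -0.53 on the log2(FPKM + 1) scale, and *Xbp1* was 0.50 with depth alone. Averaging in Tc9 replicate 1 gave no value for these 2 genes, which it does not cover. Depth does not limit the members, since each had at least 889 counts.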

Other observations

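The following genes of the lists are covered by the replicate 2 libraries only and were not tested. They were picked after their values were seen. *Os9*, a lectin that sorts misfolded glycoproteins for degradation, was higher in Tc9, with 3670 and 5446 counts (log2 ratio 0.57). This ratio was within the 0.73 of the Tc9 pair over all genes. *Trib3*, a pseudokinase induced by ATF4 and CHOP, had 1939 counts in Tc1 and 1018 in Tc9 (log2 ratio -0.93). *Mthfd2*, the mitochondrial folate enzyme, had 8337 and 3829 counts (log2 ratio -1.12), beyond 0.73, the 95th percentile of the spread between Tc9 libraries. *Phgdh*, the first enzyme of serine synthesis, had 18027 and 11651 counts (log2 ratio -0.63), within that limit but beyond the 0.49 of genes with at least 5000 counts.

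Of genes beyond the reach of Tc1 replicate 1, *Hspd1* and *Hspe1*, the chaperonin pair of the mitochondrial matrix, had lower counts in both Tc9 libraries. *Hspd1* was counted 30317 times in Tc1 replicate 2, against 18061 and 13788 times in Tc9 (log2 fold change -0.93, SE 0.23, adjusted p = 0.0613 in the 3-library edgeR test). *Eif2s1*, which encodes eIF2α itself, was counted 9583 times in Tc1 replicate 2, against 6742 and 5397 times in Tc9 (log2 fold change -0.66, SE 0.23, adjusted p = 0.145 in the same edgeR test). *Irf4*, fixed as a marker because plasma cells express it and also a factor of activated T cells, was counted 18150 times in Tc1 replicate 2, against 44730 and 42747 times in Tc9.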
